A study of Mus musculus with 10 samples.

Results

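Genes of 4 enzymes that act between lanosterol and cholesterol, the last stretch of cholesterol synthesis, were followed in mouse liver: Cyp51, Nsdhl, Hsd17b7 and Sc5d. The members were all probe sets to which the platform annotation gives exactly 1 of these symbols, which found all 4 genes among 7542 with such a probe set, each through 1 of the 12411 probe sets tested (109608_at, 105991_at, 162726_i_at and 114383_at in the same order). Each gene therefore rests on a single probe set, with no other probe set to set against it. Expression was measured on the B chip of an Affymetrix mouse set, 2 arrays for each of 5 groups.

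In all, 3 groups made up the transgenic study: male TgSREBP-1a mice and male TgSREBP-2 mice, which overexpress the transcriptionally active nuclear form of human SREBP-1a or of human SREBP-2, and their male wild type littermates. Mice of these groups were aged 12 to 16 weeks, and all of them, the wild type included, ate a diet high in protein and low in carbohydrate for 2 weeks to drive the transgenes. The other groups made up the Scap study: male Scap-/-;MX1-Cre mice, whose liver lacks SCAP, and corresponding male wild type mice. Both were aged 10 to 12 weeks, ate Teklad chow, and received 4 injections of polyinosinic-polycytidylic acid, the agent that switches the Cre on, and livers were collected 14 days later. The Mx1 promoter answers to interferon, so the Cre is not restricted to hepatocytes by its promoter. The promoter of the transgenes and the number of founder lines are not named in the labels. Each group is 1 pool (20 µg) of RNA from 5 livers, hybridised in duplicate, so every test below compares pools against hybridisation error and not against the spread between mice.

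Cholesterol is built in the endoplasmic reticulum. Acetyl-CoA is carried through mevalonate and squalene to lanosterol, the first sterol, and a second series of enzymes then strips methyl groups from lanosterol and moves and reduces its double bonds. Cyp51, a cytochrome P450, takes off the first methyl group. Nsdhl and Hsd17b7 are dehydrogenases that act one after the other in the removal of a further pair of methyl groups, and Sc5d puts in a double bond close to the end of the route. The genes of this route are textbook targets of the SREBP transcription factors, SREBP-2 above all, which are held in the membrane by SCAP and Insig proteins when sterols are plentiful and are cut free when sterols run low. The nuclear forms made by the transgenes need no SCAP, whereas without SCAP the mouse's own SREBP precursors stay in the membrane.

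The promoter windows of the 4 genes are shown because SREBPs are known to bind promoters of this route (250 bases before and 50 after the annotated start, RefSeq, GRCm38.p6; all 4 genes matched by symbol). The sequences run 5′ to 3′ along the gene, and capitals mark every match on either strand to the sterol regulatory element TCACNCCA, to a looser form of it, TCACNNCA, which includes the first, to the E-box CACGTG, to the NF-Y box CCAAT and to the GC box GGGCGG.
Cyp51, chr5:4104648-4104947, minus strand: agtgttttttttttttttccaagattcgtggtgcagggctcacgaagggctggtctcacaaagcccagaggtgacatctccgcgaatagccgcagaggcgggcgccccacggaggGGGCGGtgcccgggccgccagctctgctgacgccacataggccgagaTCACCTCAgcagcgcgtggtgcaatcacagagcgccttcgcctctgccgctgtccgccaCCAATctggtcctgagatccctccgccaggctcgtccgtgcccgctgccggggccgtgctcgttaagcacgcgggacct
Nsdhl, chrX:72918271-72918570, plus strand: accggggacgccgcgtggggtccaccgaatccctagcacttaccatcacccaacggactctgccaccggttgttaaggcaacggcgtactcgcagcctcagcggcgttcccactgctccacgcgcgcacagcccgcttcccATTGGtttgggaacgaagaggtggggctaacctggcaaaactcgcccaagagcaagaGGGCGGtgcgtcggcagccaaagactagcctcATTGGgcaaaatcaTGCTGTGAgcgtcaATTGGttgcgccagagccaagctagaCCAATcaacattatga
Hsd17b7, chr1:169969156-169969455, minus strand: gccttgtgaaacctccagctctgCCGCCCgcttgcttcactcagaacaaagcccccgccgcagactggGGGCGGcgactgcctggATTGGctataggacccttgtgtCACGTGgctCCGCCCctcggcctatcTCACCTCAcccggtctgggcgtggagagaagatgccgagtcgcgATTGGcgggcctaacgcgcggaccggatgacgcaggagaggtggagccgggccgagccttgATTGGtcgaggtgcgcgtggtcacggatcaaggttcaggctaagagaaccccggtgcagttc
Sc5d, chr9:42264251-42264550, minus strand: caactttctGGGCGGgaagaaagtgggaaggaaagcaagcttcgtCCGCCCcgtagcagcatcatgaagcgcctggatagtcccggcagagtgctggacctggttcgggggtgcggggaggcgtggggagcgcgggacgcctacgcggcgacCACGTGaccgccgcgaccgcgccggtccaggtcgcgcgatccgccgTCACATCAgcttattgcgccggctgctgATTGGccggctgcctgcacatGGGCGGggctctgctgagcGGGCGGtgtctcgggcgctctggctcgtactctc

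The strict element TCACNCCA was in 0 of the 4 windows and in 4.36% of 32851 windows of the same length in the RefSeq table. The looser form was in 4 of 4 windows, against 13.8% of all windows. In Cyp51 it read TCACCTCA and ran from base -88 to -81, counted from the annotated start (the start is base 1, and there is no base 0). Hsd17b7 held the same 8 letters at -117 to -110. In Sc5d it read TCACATCA at -52 to -45, and in Nsdhl it read TCACAGCA on the opposite strand, from -6 to 2. The NF-Y box was in 4 of 4 windows (37.4% of all), with 9 matches in all, 4 of them in Nsdhl. The GC box was also in 4 of 4 (35.7% of all). The E-box was in the windows of Hsd17b7 and Sc5d and in 7.15% of all. The looser element, the NF-Y box and the GC box stood together in all 4 windows and in 1.4% of all windows. The windows of the 4 genes were GC-rich (59.3% to 68.3% G and C) beside a median of 52.7% over all windows. The matches overlapped in 0 cases. The letters to search were chosen with these windows in view, and a match describes the letters, not a bound site.

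**Figure D1:**
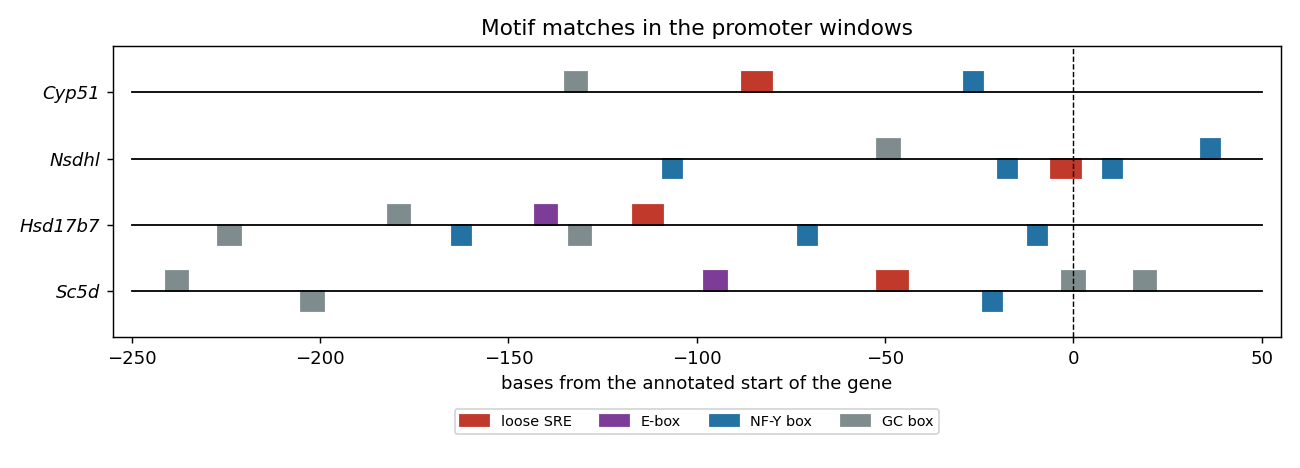
Positions of the motif matches in the 4 promoter windows, as bases from the annotated start of each gene (dashed line); boxes above a line lie on the strand of the gene, boxes below it on the other strand. Every window holds a looser sterol regulatory element (TCACNNCA), at least 1 NF-Y box and at least 1 GC box, and Nsdhl is the window in which the looser element lies across the start.

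The arrays were compared before the genes. Array medians lay between 5.63 and 5.66 on the log2 scale. Duplicates correlated at 0.987 to 0.994 across probe sets, and in the Scap study every array was closer to an array of the other group than to its own duplicate. The second TgSREBP-2 array, likewise, was closer to the second array of its wild type (0.992) than to its duplicate (0.989). Scap, the deleted gene, read 7.94 and 7.75 (log2) on its brighter probe set in Scap-/- liver, against 9.24 and 8.89 in its wild type, a fall of 1.22 ± 0.18 (limma standard error, adjusted p = 0.018). This call ended without either Scap-/- array or without the first wild type array. It also ended with only the 4 arrays of the Scap study, and with the probe sets of Scap averaged (a difference of -0.55). Its other probe set, a dim one, read 3.56 and 3.63 against 3.37 and 3.58. The exons that these probe sets read, and those removed by the Cre, are not named in the labels.

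Markers of some other cells differed between pools. Limma called 0 of 3 measured stellate cell markers and 0 of 2 measured cholangiocyte markers in every comparison. At an unadjusted p under 0.05 there was 1 stellate marker in TgSREBP-1a, both against wild type and against TgSREBP-2. Summed log2 values of the 3 measured pancreatic acinar markers were 18.2 to 18.3 for TgSREBP-1a and 29.3 to 30.3 for TgSREBP-2, against 26.5 to 27.5 in wild type, and 19.0 to 19.3 in Scap-/- against 24.1 to 24.7 in its wild type. Cpb1 and Cela3b fell in TgSREBP-1a (log2 differences of -4.67 and -3.84) and in Scap-/- (-3.21 and -1.89), and Ctrc rose in TgSREBP-2 (1.51). Ctrc read -0.22 in TgSREBP-1a, and Cpb1 and Cela3b both read 0.63 in TgSREBP-2, none of them called. The 5 measured hepatocyte markers summed to 44.6 to 45.6 in TgSREBP-1a and 49.4 to 50.7 in TgSREBP-2, against 51.0 to 52.7 in wild type, and to 49.5 to 52.0 in Scap-/- against 51.7 to 53.7 in its wild type. Of these, C8a and C8b fell in TgSREBP-1a (-2.60 and -2.22), and Apoa1 (-0.42), Hnf4a (-0.42) and Tdo2 (-1.07) were not called. Apoa1, an abundant hepatocyte product, averaged 13.1 over the 10 arrays, and Hnf4a 10.2, where the median probe set was near 5.65. The 2 macrophage markers summed to 9.29 to 9.55 in TgSREBP-1a against 8.43 to 8.46 in wild type, and the 4 endothelial markers to 28.6 to 29.0 against 27.4 to 27.7. Among them Cd163 (0.91) and Lyve1 (0.64) rose, while Timd4 (0.07), Ptprb (0.50), Stab1 (0.01) and Stab2 (0.10) were not called. What part these shifts have in the enzyme values was not tested. In whole liver, fewer cells of a type and less RNA per cell cannot be told apart.

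Cyp51, the demethylase of lanosterol (chromosome 5), was higher in both transgenic lines and lower without SCAP. It read 7.35 and 7.08 on the TgSREBP-1a arrays and 7.87 and 7.77 on the TgSREBP-2 arrays, against 5.28 and 4.91 in their wild type (log2 expression). The transgenic arrays lay far above the wild type arrays, and the TgSREBP-2 arrays also lay above those of TgSREBP-1a. In Scap-/- liver it read 4.88 and 4.64, against 6.43 and 6.21 in the wild type of that study, again without overlap. Relative to wild type, Cyp51 rose by 2.12 ± 0.15 in TgSREBP-1a on the log2 scale (4.33-fold, 95% interval 3.44 to 5.46; limma, adjusted p = 3.2e-05). In TgSREBP-2 it was 2.72 ± 0.15 (6.61-fold, 5.24 to 8.32; limma, adjusted p = 2.7e-05), the smallest p of all 12411 probe sets in that comparison. Without SCAP the gene fell by 1.57 ± 0.15 (2.96-fold lower, 2.35 to 3.73; limma, adjusted p = 0.0015). With any 1 of the arrays compared left out, the rises were 1.93 to 2.30 in TgSREBP-1a and 2.54 to 2.91 in TgSREBP-2. The difference in Scap-/- was then -1.68 to -1.45. This fall did not pass when the fit held only the 4 arrays of the Scap study (limma, adjusted p = 0.05, rounded, within a range of 1.5e-05 to 0.05 over the alternatives).

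Nsdhl, the dehydrogenase that acts after it (X chromosome), followed the same directions with smaller steps. The values were 7.11 and 7.06 with the SREBP-1a transgene and 7.69 and 7.37 with the SREBP-2 transgene, against 5.94 and 6.14 in wild type. Every transgenic array stood at least 0.92 above the higher wild type array. In Scap-/- liver the values were 5.95 and 5.99, against 7.02 and 6.82 in wild type, and the duplicates of the knockout pool differed by only 0.04. Nsdhl rose by 1.05 ± 0.13 in TgSREBP-1a (2.07-fold, 1.70 to 2.52; limma, adjusted p = 0.0011) and by 1.49 ± 0.13 in TgSREBP-2 (2.81-fold, 2.31 to 3.41; adjusted p = 0.00055). It fell by 0.95 ± 0.13 in Scap-/- (1.93-fold lower, 1.59 to 2.35; limma, adjusted p = 0.011). With any 1 of the arrays compared left out, the rises were 0.95 to 1.15 in TgSREBP-1a and 1.33 to 1.65 in TgSREBP-2. The fall was lost without the first or the second Scap-/- array (limma adjusted p = 0.067 and 0.13) or without the first wild type array (0.11), while its size stayed between 0.85 and 1.05.

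Hsd17b7, the reductase that works next to Nsdhl in the same demethylation (chromosome 1), had the widest span of the 4 genes and the widest duplicates. TgSREBP-1a arrays read 7.52 and 7.49, and TgSREBP-2 arrays read 8.60 and 9.17, against 6.16 and 5.56 in wild type. Scap-/- arrays read 5.27 and 4.61, against 7.77 and 6.89 in their wild type. The groups did not overlap in either study, although duplicates differed by up to 0.89, in wild type liver of the Scap study. The rise was 3.02 ± 0.32 in TgSREBP-2 (8.11-fold, 5.00 to 13.2; limma, adjusted p = 0.0014), first in rank by size among all probe sets there. In TgSREBP-1a it was 1.64 ± 0.32 (3.12-fold, 1.92 to 5.07; limma, adjusted p = 0.019). The fall in Scap-/- was 2.39 ± 0.32 (5.23-fold lower, 3.22 to 8.49; limma, adjusted p = 0.011), the fourth largest there. The call in TgSREBP-1a was lost without either TgSREBP-1a array (limma adjusted p = 0.16 and 0.13) or without the second wild type array (0.2), and that in Scap-/- without the second knockout array (0.16) or the first wild type array (0.072); the rise in TgSREBP-2 held each time.

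Sc5d, the desaturase near the end of the route (chromosome 9), changed least under the transgenes. TgSREBP-1a gave 7.94 and 7.77, and TgSREBP-2 gave 8.29 and 8.35, against 7.33 and 7.06 in wild type. The groups did not overlap. In Scap-/- liver Sc5d read 7.68 and 7.58, against 9.09 and 8.51 in wild type. Here the wild type duplicates were 0.58 apart, but the lower of them was still 0.83 above the higher knockout array. Sc5d rose by 1.13 ± 0.17 in TgSREBP-2 (2.18-fold, 1.68 to 2.83; limma, adjusted p = 0.015) and fell by 1.17 ± 0.17 in Scap-/- (2.24-fold lower, 1.73 to 2.91; adjusted p = 0.018). Its difference of 0.66 ± 0.17 in TgSREBP-1a (1.58-fold, 1.22 to 2.05) missed the threshold (limma, adjusted p = 0.084). The call in TgSREBP-2 was lost without any 1 of the 4 arrays compared (limma adjusted p = 0.06 to 0.19), and that in Scap-/- without either knockout array or the first wild type array (0.075 to 0.23). The difference in TgSREBP-1a passed with only the 4 arrays compared (0.011), with the 6 arrays of the transgenic study (0.012), with the replicate block (0.018) and after a further quantile normalization (0.028).

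**Figure D2:**
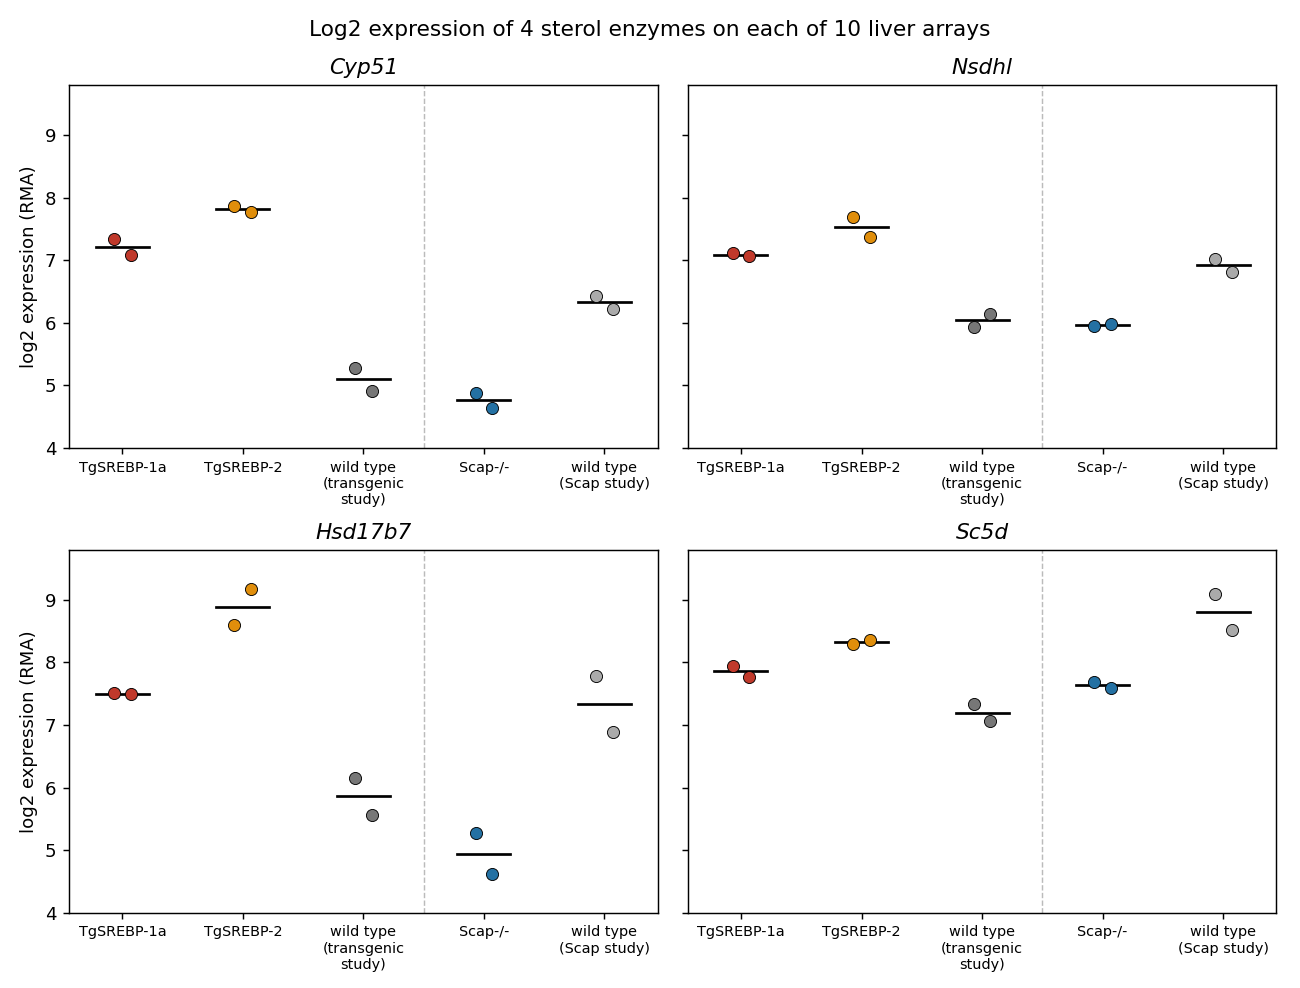
Log2 expression (RMA) of each enzyme on the 10 arrays; each point is 1 array, each bar the mean of the 2 arrays of a pool, and the dashed line separates the transgenic study from the Scap study. Both transgenic pools lie above their wild type and the Scap-/- pool below its own for all 4 genes, with no overlap, and the wild type pools of the studies differ from each other.

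As a group, 3 of the 4 genes were called higher in TgSREBP-1a, 4 of 4 higher in TgSREBP-2 and 4 of 4 lower in Scap-/- (adjusted p under 0.05 and at least 1.5-fold). Of all probe sets, 1.36% were called higher in TgSREBP-1a, 0.338% higher in TgSREBP-2 and 0.258% lower in Scap-/-. The 4 genes were chosen with earlier results of these data known, so these shares describe the counts and do not test them. The median log2 difference of the 4 genes was 1.35 in TgSREBP-1a, 2.11 in TgSREBP-2 and -1.37 in Scap-/-, while the median of all probe sets was -0.02, -0.02 and 0.02 in the same order. The transgenic comparisons share their wild type arrays. In each of these comparisons the arrays of the groups did not overlap for 4 of 4 genes, and the same held in that direction for 19.0% of all probe sets in TgSREBP-1a, 15.6% in TgSREBP-2 and 14.4% in Scap-/-. Cyp51, Nsdhl and Hsd17b7 were called in all 3 directions at once, as were 11 probe sets (0.0886%) in all. Leaving out the first wild type array of the Scap study or the second Scap-/- array cut the count of 4 falls to 1, and leaving out the first Scap-/- array cut it to 2. With only the 4 arrays of that study 0 passed by limma (adjusted p = 0.05, rounded, to 0.35), with 4 of 4 at an unadjusted p under 0.05.

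**Figure D3:**
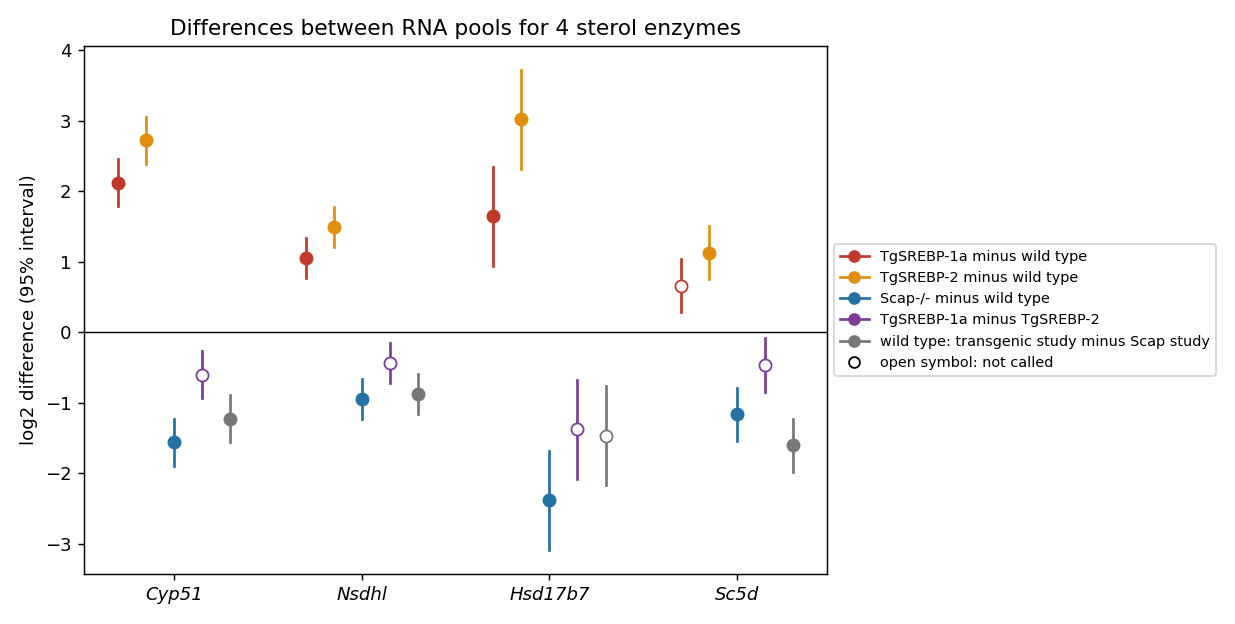
Log2 differences between pools with their 95% limma intervals (vertical lines), for each enzyme and 5 comparisons; filled symbols passed the threshold and open symbols did not. Gains sit above 0 and the SCAP loss below 0 for every gene, and the direct difference between the transgenic lines is below 0 for every gene but is not called.

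The transgenic lines were set directly against each other. The amounts of SREBP made by the transgenes were not compared, so this contrast is between lines and not between SREBPs at equal amounts. All 4 enzymes read lower in TgSREBP-1a than in TgSREBP-2, with no overlap between arrays, and 0 of 4 passed the threshold in limma, though 4 of 4 had an unadjusted p under 0.05. Of all probe sets, 0.677% were called lower in TgSREBP-1a and 20.7% were lower without overlap. Hsd17b7 differed most, by -1.38 ± 0.32 (95% interval -2.08 to -0.68; limma, adjusted p = 0.055). For Cyp51 the difference was -0.61 ± 0.15 (-0.94 to -0.27; adjusted p = 0.075 by limma). Sc5d differed by -0.47 ± 0.17 (-0.84 to -0.09) and Nsdhl by -0.44 ± 0.13 (-0.72 to -0.16), with limma adjusted p = 0.23 and 0.13. The call on Hsd17b7 turned on the setting: it passed with only the 6 arrays of the transgenic study (0.0063), with only the 4 arrays compared (0.0025), with the replicate block (0.017), after median centring (0.049) and after a further quantile normalization (0.039), over a range from 0.0025 to 0.33. Cyp51 passed with the 4 arrays (limma adjusted p = 0.035) and with the block (0.004), within a range of 0.004 to 0.43, and Nsdhl without the second TgSREBP-2 array (0.043).

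**Figure D4:**
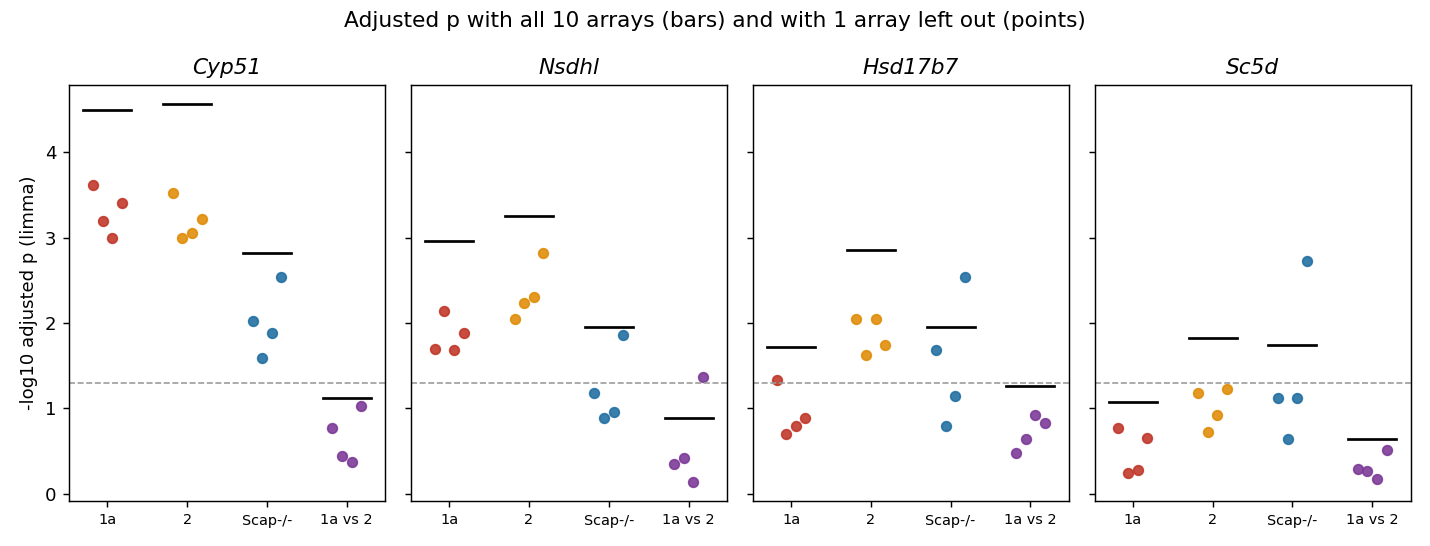
Negative log10 of the limma adjusted p for each enzyme (panels) in TgSREBP-1a against wild type (1a), TgSREBP-2 against wild type (2), Scap-/- against wild type and TgSREBP-1a against TgSREBP-2; bars give the fit of all 10 arrays, points the fits with 1 array of the compared groups left out, and the dashed line is at 0.05. Every Cyp51 point against wild type lies above the line, while points of Sc5d lie below it in both transgenic lines.

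The wild type pools also differed. Wild type liver of the transgenic study, on the diet high in protein and low in carbohydrate, read lower than chow-fed, injected wild type liver of the Scap study for all 4 enzymes, by 1.60 ± 0.17 for Sc5d (3.04-fold; limma, adjusted p = 0.0033), by 1.23 ± 0.15 for Cyp51 (2.35-fold; adjusted p = 0.0071) and by 0.88 ± 0.13 for Nsdhl (1.84-fold; adjusted p = 0.016). Hsd17b7 was 1.47 ± 0.32 lower and did not pass (limma, adjusted p = 0.098; range over the alternatives 0.023 to 0.72), but it was called with the replicate block (0.023) and without the second wild type array of the Scap study (0.024). Thus 3 of 4 were called, beside 0.355% of all probe sets called lower, and the arrays of 4 of 4 did not overlap, as for 17.4% of all. Without the second wild type array of the transgenic study the calls on Cyp51 and Nsdhl were lost (differences of -1.05 and -0.98). That on Nsdhl was also lost without the first array of that pool (-0.78) or the first wild type array of the Scap study (-0.78). With the 4 arrays alone the count was 0 by limma (adjusted p = 0.076 to 0.26), with 4 of 4 at an unadjusted p under 0.05. Diet, age, injections and breeding differ together between these pools and cannot be told apart. For Sc5d this difference between wild types was larger than the rise of 1.13 under SREBP-2.

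The levels of the 5 pools can be put in order within each gene. For Cyp51 the order was, from the lowest mean, Scap-/- (4.76), wild type of the transgenic study (5.09), wild type of the Scap study (6.32), TgSREBP-1a (7.21) and TgSREBP-2 (7.82). The first pair of neighbours was closer (0.34) than the duplicates of the wild type pool (0.37). Nsdhl kept that order with means of 5.97, 6.04, 6.92, 7.09 and 7.53. There, Scap-/- and the wild type of the transgenic study overlapped, and the wild type of the Scap study lay only 0.17 below TgSREBP-1a, less than its duplicates differed. Hsd17b7 had the same order with means of 4.94, 5.86, 7.33, 7.50 and 8.88, and the wild type of the Scap study overlapped TgSREBP-1a. Sc5d differed in its order: lowest was the wild type of the transgenic study (7.20), then Scap-/- (7.63), TgSREBP-1a (7.85), TgSREBP-2 (8.32) and, highest of all, the wild type of the Scap study (8.80). Neither transgenic pool therefore reached the chow-fed wild type for Sc5d, although the gap of 0.48 at the top was smaller than the difference between those wild type duplicates (0.58). From the lowest to the highest pool the span was 15.3-fold for Hsd17b7, 8.33-fold for Cyp51, 3.04-fold for Sc5d and 2.95-fold for Nsdhl. SREBP loss and gain come from separate studies here, so an order across them also holds the difference in diet, age and injections.

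Other enzymes of the route were read from a list chosen with earlier results known. Upstream of lanosterol, 3 of 12 listed genes were measured, and 3 of 3 were called higher in each transgenic line. Of all probe sets, 1.36% were called higher in TgSREBP-1a and 0.338% in TgSREBP-2. Idi1, the isomerase that starts isoprenoid assembly, rose by 1.61 ± 0.16 in TgSREBP-1a and by 2.79 ± 0.16 in TgSREBP-2, and fell by 2.26 ± 0.16 in Scap-/- (limma, adjusted p = 0.00022, 2.7e-05 and 0.00015). Pmvk, the kinase of phosphomevalonate, rose by 2.98 ± 0.25 and 2.85 ± 0.25 in the same lines. It fell by 2.20 ± 0.25 in Scap-/-, all on its brighter probe set only. That fall was not called without the second Scap-/- array or with only the 4 arrays of the Scap study. The dim probe set of Pmvk read -0.09, -0.20 and 0.21. Lss, the cyclase that makes lanosterol itself, read 9.62 and 9.11 on TgSREBP-1a arrays and 9.33 and 9.06 on TgSREBP-2 arrays, against 7.72 and 7.80 in wild type. It rose by 1.61 ± 0.15 and 1.44 ± 0.15. In Scap-/- liver Lss read 7.81 and 7.81, against 8.42 and 8.38 in its wild type. This difference of -0.59 ± 0.15 did not pass (limma, adjusted p = 0.34). Thus 2 of 3 were called lower there, beside 0.258% of all probe sets, and 3 of 3 had an unadjusted limma p under 0.05. Downstream, Lbr, a sterol reductase of the nuclear envelope that can act after Cyp51, was the 1 gene of 7 measured besides the 4. It rose by 0.61 ± 0.10 in TgSREBP-2 (1.52-fold; limma, adjusted p = 0.036), a call lost without any 1 of the 4 arrays, and its differences were 0.23 ± 0.10 in TgSREBP-1a and -0.06 ± 0.10 in Scap-/-.

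**Figure D5:**
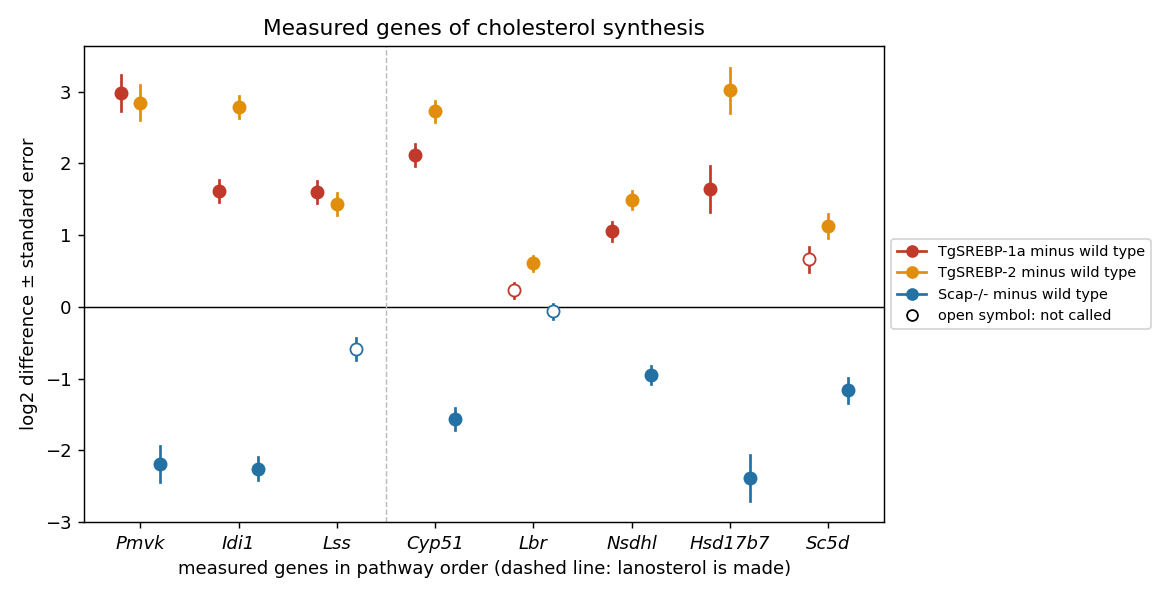
Log2 differences with limma standard errors for the 8 measured genes of cholesterol synthesis in pathway order, in the 3 comparisons with a wild type pool; filled symbols passed the threshold, and the dashed line marks where lanosterol is made. Idi1, Cyp51, Lbr, Nsdhl, Hsd17b7 and Sc5d have their larger difference in TgSREBP-2, and Pmvk and Lss in TgSREBP-1a; between the lines only Idi1 of these genes was called.

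The oxidases of the route take their electrons from cytochrome b5, its reductases and P450 reductase. Of 9 such genes and sterol-binding partners listed, 3 were measured (Cyb5a, Cyb5r4 and Pgrmc2), and limma called 0 of 3 in each comparison. At an unadjusted p under 0.05 there were 2 in TgSREBP-1a, 0 in TgSREBP-2 and 1 in Scap-/-. Their log2 differences lay between -0.46 and 0.30 in these comparisons.

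Of 21 listed genes of sterol sensing, uptake and transport, 10 were measured. Limma called 4 higher in TgSREBP-1a, 3 higher in TgSREBP-2 and 3 lower in Scap-/-. Of all probe sets, 1.36%, 0.338% and 0.258% were called in these directions. Insig1, the membrane anchor of SCAP and itself a known SREBP target, rose by 3.03 ± 0.24 in TgSREBP-1a and by 2.36 ± 0.24 in TgSREBP-2, and fell by 2.53 ± 0.24 in Scap-/-. Set directly against each other, the lines differed by 0.67 ± 0.24 for Insig1, which did not pass (TgSREBP-1a minus TgSREBP-2; limma, adjusted p = 0.22). Stard4 and Abcg5 also rose in both lines, and Mylip, a ligase that marks the LDL receptor for breakdown, rose in TgSREBP-1a. In Scap-/- liver the other calls were Stard4 and Scap itself. The fall of Stard4 was lost without the second Scap-/- array (limma adjusted p = 0.087) and with only the 4 arrays of that study (0.16), and that of Insig1 with those 4 arrays (0.12). Of 4 measured genes of bile acid synthesis, the main outlet of cholesterol in liver, limma called 0 in each comparison with a wild type pool, with 1 in TgSREBP-1a, 2 in TgSREBP-2 and 1 in Scap-/- at an unadjusted p under 0.05. Between the lines, Cyp39a1 was called (-1.07 for TgSREBP-1a minus TgSREBP-2, limma, adjusted p = 0.022) and the other 3 were not.

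The genes whose 3 log2 differences (both lines and Scap-/-) came closest to those of each enzyme were taken by the smallest root mean square distance. For Hsd17b7 the nearest was Idi1, at 0.15 log2 units. For Cyp51 it was Stard4, a carrier of sterols, at 0.44 (1.68, 2.14 and -1.77), followed by Idi1, Hsd17b7, Pmvk and Acss2, the synthetase of acetyl-CoA from acetate. The list of Hsd17b7 went on with Cyp51, Stard4, Pmvk and Acss2, so both genes had nearly the same neighbours. Nsdhl lay nearest to Aacs, the synthetase of acetoacetyl-CoA, at 0.19 (1.32, 1.36 and -1.08), then to the sterol transporter Abcg5, to Mpv17l, to Pank3, which starts coenzyme A synthesis, and to Sc5d. Sc5d lay nearest to Mpv17l at 0.26 (0.90, 1.01 and -0.80), then to Pank3, Nsdhl, Aacs and Mgam. Of these neighbours, Abcg5, Mpv17l and Pank3 were not called in Scap-/-, and Mgam was not called in any of the 3 comparisons. The calls on Mpv17l in the transgenic lines were lost without any 1 of the 4 arrays compared. Pank3 entered through 1 probe set (1.03, 0.99 and -0.76), while its brightest read 0.76, 0.57 and -0.16. Among the 4 enzymes themselves Nsdhl and Sc5d were closest (0.33) and Hsd17b7 and Sc5d farthest apart (1.42). These distances are a description over 3 comparisons of 10 arrays, of which a pair share their wild type.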

How the data were processed

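The deposited values are log2 expression values, 1 column per array, made by the authors with RMA, for which the submitters' processing notes give no version; the design text also names Microarray Suite 5.0. RMA corrects background, equalises the arrays' distributions and summarises probes, which compresses changes of dim probe sets. No genome build is given for the arrays in the sources used here. Of 12477 probe sets, 66 array controls were left out. Symbols came from the platform annotation (10581 probe sets with 1 symbol). The 10 arrays entered 1 linear model, with a coefficient for each group (limma 3.58.1 in R 4.3.3, lmFit and eBayes), with two-sided p-values adjusted by Benjamini-Hochberg over 12411 probe sets and a call at adjusted p under 0.05 and 1.5-fold or more. Errors are limma standard errors, with n = 2 arrays per group, and the number of arrays limits the precision (median standard error 0.115). An exact permutation test of 2 arrays against 2 cannot go below p = 0.333 and was not used. Genes of a list were represented by their probe set with the highest mean. The text names the 4 enzymes, measured genes of sterol synthesis, called genes of the other lists near the route, Scap, and the 5 nearest genes of each enzyme. Members, lists and motifs were chosen with earlier results of these data known. The fit was tested on simulated data, with independent errors and with shifts placed in TgSREBP-1a only. Deviations shared by same-numbered arrays were not simulated. Alternatives were the replicate block, each array left out, the compared arrays alone, median centring, a further quantile normalization, an intensity trend, dim probe sets removed, probe sets averaged per gene and no minimum fold; the 6 arrays of the transgenic study alone were added after the data were seen.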

Additional observations from a re-analysis of the deposited data

How the results depend on the processing

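For the 4 enzymes, 252 values were recomputed over 5 comparisons. A direction could change only under median centring or a further quantile normalization. Leaving out 1 array could not change it, because the arrays compared did not overlap for any of the enzymes. The other alternatives leave the values themselves as they were, with 1 probe set per enzyme, so there only the calls could move. In 212 the direction and the side of the threshold were as reported, in 26 a call was lost, in 14 one was gained, and 0 changed direction. The count of falls in Scap-/- (4 of 4) ranged from 1 to 4 with 1 array left out and was 0 with only 4 arrays. Between the lines, TgSREBP-1a against TgSREBP-2, the count of 0 became 2 with the replicate block, 2 with only the 4 arrays compared, 1 with the 6 arrays of the transgenic study, 1 after median centring and 1 after a further quantile normalization, and 0 to 1 with 1 array left out. For the wild type pools, the count of 3 ranged from 1 to 4 with 1 array left out and was 0 with only 4 arrays. The count of 3 in TgSREBP-1a ranged from 2 to 4 over all alternatives, and that of 4 in TgSREBP-2 from 3 to 4.

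Over all probe sets, calls moved from 270 in TgSREBP-1a to 142 to 193 with 1 array left out, from 62 in TgSREBP-2 to 25 to 124, from 34 in Scap-/- to 10 to 68 and 5 with 4 arrays, from 231 between the lines to 87 to 384, and from 63 between wild types to 14 to 120 and 13 with 4 arrays. The replicate block gave 101 in TgSREBP-2, 91 in Scap-/- and 145 between wild types. No label says that the hybridisation number marks a batch; same-numbered arrays of compared groups deviated together with correlations of 0.0573 to 0.598. With the block, 4 enzymes were called in TgSREBP-1a, 4 in TgSREBP-2, 4 in Scap-/- and 4 between wild types. Values near 0 changed sign for genes outside the 4: Scap in TgSREBP-1a (0.10) read -0.11 to 0.30 with 1 array left out and -0.031 with its probe sets averaged, and Lbr in Scap-/- read -0.13 to 0.00052 with 1 array left out. Causes were not tested.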

Other observations

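Relatives of the 4 enzymes were read from lists chosen with earlier results known. Of 5 measured members of the 17beta-hydroxysteroid dehydrogenase family besides Hsd17b7, 0 were called higher in either transgenic line and 1 was called lower in each, with medians of -0.06 in TgSREBP-1a and -0.19 in TgSREBP-2 beside -0.02 for all probe sets in both. In Scap-/- 0 were called. At an unadjusted p under 0.05 there were 3, 2 and 2 of 5 in these comparisons. Among all 12411 probe sets, 270, 62 and 34 were called in either direction. The called gene was Hsd17b6, which fell by 1.55 in TgSREBP-1a (limma, adjusted p = 7e-04) and was also called lower in TgSREBP-2 (adjusted p = 0.039), both on its brighter probe set. The call was lost in TgSREBP-2 without the first wild type array, without either TgSREBP-2 array or with 4 arrays alone. Its other probe set read -0.67 and -0.61 in these lines. Hsd17b13, a lipid droplet protein of the family, read 0.83 in TgSREBP-1a and -1.10 in TgSREBP-2, neither called, and the direct difference between the lines was called (1.93, TgSREBP-1a minus TgSREBP-2; limma, adjusted p = 0.0018). Sdr42e1, the 1 measured relative of Nsdhl on the list, fell by 0.68 in TgSREBP-1a, a call lost without any 1 of the 4 arrays compared. Agmo and Fa2h, hydroxylases of the family of Sc5d, lay between -0.0038 and 0.24 in the transgenic lines, and limma called 0 of 2 in every comparison (0 at an unadjusted p under 0.05).

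Of 7 measured genes that draw on the mevalonate route outside sterols (Ggps1, Dhdds, Coq2, Pggt1b, Rabggta, Icmt and Trit1), limma called 0 in every comparison, with 1, 1 and 0 at an unadjusted p under 0.05 in TgSREBP-1a, TgSREBP-2 and Scap-/-. Their medians were -0.01, -0.10 and -0.08.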
